A study of Mus musculus with 18 samples.

Results

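The 54 genes described here encode the machinery of mitosis, from the kinases that start it to the proteins that part the daughter cells. They were taken by symbol from a fixed list, and all 54 were found among the 21254 rows of the deposited count table. All 54 also passed the filter on low counts, which left 15811 genes tested. Of the 54, 51 would pass it without the matIM libraries, and Cdc25c, Ttk and Cenpf passed only with them.

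The counts come from bulk RNA sequencing of 3 sorted lung populations of mice on a C57BL/6 background, 24 h after 15 min of nebulized lipopolysaccharide (LPS) of Pseudomonas aeruginosa, 12.5 mg in 5 ml PBS. Every group received LPS, and untreated mice are not analysed here. Monocyte-derived moMs were sorted as CD45+CD11b+MHC-II-Ly6C+ cells, transitional interstitial macrophages (tnsIMs, trIMs in the labels) as MHC-II+Ly6C+ cells and mature interstitial macrophages (matIMs) as MHC-II+Ly6C- cells of the same CD45+CD11b+ gate. In Ezr-KOm mice, Cre recombinase under Cx3cr1 excises floxed alleles of Ezr, which encodes ezrin, a linker of the plasma membrane to actin. The alleles are cut in cells that have used this promoter, and Ezr counts in the sorted Ezr-KOm cells were lowered but not absent. The WT mice carry the same Cre without floxed Ezr. There were 3 libraries in each of 6 groups, 18 in all, with totals between 16512783 and 48460995 counts. The study describes the replicates as biological, from as many mice of each genotype as a group has libraries, and the labels tie no library to a mouse.

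Mitosis starts when cyclin B activates Cdk1. Chromosomes then condense, kinetochores capture spindle microtubules, and a checkpoint holds the cell until every kinetochore is attached. The anaphase-promoting complex next frees separase to cut the sister chromatids apart, and a contractile ring guided by centralspindlin divides the cytoplasm. Most of these genes are transcribed late in the cell cycle, from G2 to mitosis, and monocytes and most tissue macrophages are known as cells that divide little unless stimulated. Their promoters are known for a pair of elements, the CHR element, bound by MuvB complexes such as DREAM, and the CCAAT box, bound by NF-Y.

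The RefSeq promoter table used here held 45 of the 54 genes, from 250 bases before to 50 bases after the start of transcription. The letters TTTGAA of the CHR element, on either strand, were in 33 of the 45 (73.3%), against 18.1% of 27025 promoters of all genes. CCAAT on either strand was in 32 of the 45 (71.1%), against 37.9% of all promoters, and both motifs were in 27 (60.0%), against 7.12%. The E2F letters TTTNGCGC were in 4 (8.89%), against 1.38%. Matches of TTTGAA and CCAAT shared bases in 1 of the 45 promoters. Promoters of 6 of these genes are printed because their genes follow the patterns described below. Those of Cdk1, Ccnb2 and Top2a belong to genes with higher counts in matIMs, those of Racgap1 and Anln to genes with low counts in tnsIMs, and that of Bub3 to a gene with like counts in every population. Capitals mark TTTGAA and CCAAT or their reverse complements TTCAAA and ATTGG, each sequence runs 5′ to 3′ in the direction of its gene, and positions are RefSeq positions on GRCm38.p6, an older build than the GRCm39 of the count table.
Cdk1, chr10:69352863-69353162, minus strand: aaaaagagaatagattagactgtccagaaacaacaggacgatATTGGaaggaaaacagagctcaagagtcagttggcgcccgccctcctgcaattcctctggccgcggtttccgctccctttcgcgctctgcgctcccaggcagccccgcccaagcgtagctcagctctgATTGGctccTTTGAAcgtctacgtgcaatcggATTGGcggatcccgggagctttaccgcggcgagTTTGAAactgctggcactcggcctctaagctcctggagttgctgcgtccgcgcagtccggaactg
Ccnb2, chr9:70421505-70421804, minus strand: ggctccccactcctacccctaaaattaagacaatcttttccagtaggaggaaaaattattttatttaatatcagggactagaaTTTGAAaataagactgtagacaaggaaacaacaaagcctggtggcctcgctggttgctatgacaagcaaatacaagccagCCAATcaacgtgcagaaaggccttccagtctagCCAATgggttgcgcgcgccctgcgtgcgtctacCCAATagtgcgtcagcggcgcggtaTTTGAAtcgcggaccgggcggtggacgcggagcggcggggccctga
Top2a, chr11:99024140-99024439, minus strand: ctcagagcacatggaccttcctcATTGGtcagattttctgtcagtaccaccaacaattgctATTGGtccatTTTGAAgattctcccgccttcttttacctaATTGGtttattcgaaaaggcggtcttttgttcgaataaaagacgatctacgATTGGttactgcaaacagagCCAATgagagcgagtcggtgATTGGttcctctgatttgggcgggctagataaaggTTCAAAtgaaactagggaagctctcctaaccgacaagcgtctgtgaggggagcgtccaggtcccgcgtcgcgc
Racgap1, chr15:99651607-99651906, minus strand: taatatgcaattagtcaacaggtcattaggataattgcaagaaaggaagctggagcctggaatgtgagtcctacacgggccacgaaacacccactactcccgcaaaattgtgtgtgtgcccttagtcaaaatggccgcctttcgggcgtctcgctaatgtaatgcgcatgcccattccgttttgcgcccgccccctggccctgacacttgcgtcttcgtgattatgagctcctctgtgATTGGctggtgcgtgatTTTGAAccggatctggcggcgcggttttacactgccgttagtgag
Anln, chr9:22389157-22389456, minus strand: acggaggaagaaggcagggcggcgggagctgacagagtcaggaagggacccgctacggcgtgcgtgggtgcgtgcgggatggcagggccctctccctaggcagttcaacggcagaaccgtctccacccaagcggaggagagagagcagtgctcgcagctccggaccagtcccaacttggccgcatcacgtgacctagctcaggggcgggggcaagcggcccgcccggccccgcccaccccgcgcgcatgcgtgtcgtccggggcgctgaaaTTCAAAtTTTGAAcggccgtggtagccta
Bub3, chr7:131560120-131560419, plus strand: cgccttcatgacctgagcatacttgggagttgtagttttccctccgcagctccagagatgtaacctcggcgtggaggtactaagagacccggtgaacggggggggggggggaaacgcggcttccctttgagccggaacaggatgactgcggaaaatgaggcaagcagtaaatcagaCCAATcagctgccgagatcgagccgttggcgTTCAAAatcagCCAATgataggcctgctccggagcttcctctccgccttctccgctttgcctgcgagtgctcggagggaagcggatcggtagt
Top2a holds both motifs several times, and Bub3 holds both as well, so that the letters alone do not separate the genes printed. In Cdk1 a TTTGAA lies 71 to 66 bases before the start, beside an inverted CCAAT at 80 to 76 bases before it. Anln holds TTTGAA and its reverse complement next to each other after the start, and no CCAAT in this window. Of the 33 genes with TTTGAA, 17 were called higher in matIMs than in tnsIMs of both genotypes, and of the 12 without it 5 were. Over all genes tested this share was 6.46%, and genes with and without TTTGAA were not compared by a test. Among 32 DNA replication genes with a promoter, TTTGAA was in 12.5% and TTTNGCGC in 34.4%. These matches are a description of the letters and are not measured binding.

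Many of the 54 mitosis genes were higher in matIMs than in moMs or tnsIMs, while few differed between moMs and tnsIMs. In the 4 comparisons of matIMs with the other populations of their genotype, 18 were called higher in all 4, against 4.88% of all genes tested, and 14 were called in none, against 62.7%. Levels are CPM, the count of a gene scaled to a common library total after TMM normalization, changes are log2 fold changes from edgeR's quasi-likelihood test, and a gene is called at a Benjamini-Hochberg adjusted p under 0.05 over all 15811 genes. In WT, 34 of the 54 were called higher in matIMs than in tnsIMs (63.0% of them) and 0 lower, against 8.32% of all genes tested called higher and 10.2% lower. Against moMs, 27 were called higher in WT matIMs (50%) and 0 lower, with 13.4% of all genes higher and 11.4% lower. In Ezr-KOm mice, 28 were called higher in matIMs than in tnsIMs (51.9%) and 0 lower, with 8.37% and 9.85% of all genes. The same number, 28, was called higher in Ezr-KOm matIMs than in moMs and 0 lower, with 12.5% and 10.7% of all genes. These fits had no term for the replicate number, although equal numbers paired the libraries in most comparisons, as described at the end. With that number as a block, 36 were called higher in WT matIMs than in tnsIMs, and 33 higher and 1 lower than in moMs. In Ezr-KOm the block gave 34 and 32 higher.

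The median log2 fold change of the 54 genes was 1.26 for WT matIMs over tnsIMs and 1.17 over moMs, where the median of all genes was 0.04 and 0.01. In Ezr-KOm mice the medians were 1.11 and 1.27, with 0.02 and 0.01 over all genes. Leaving out the 3 genes that passed the filter only through matIMs, 32, 26, 27 and 26 of the other 51 were called higher in these 4 comparisons. The comparisons with tnsIMs and with moMs share the matIM libraries of their genotype. In both genotypes, 26 genes were called higher in matIMs than in tnsIMs, against 6.46% of all genes, and 25 higher than in moMs, against 10.3%. Ttk is among the 26 and Cenpf among the 25, and both passed the filter only with the matIM libraries. The mean level was highest in matIMs for 46 of the 54 genes in WT and 44 in Ezr-KOm. Per library, the summed level of the 54 genes was 409 to 434 CPM in WT moMs, 374 to 420 CPM in WT tnsIMs and 529 to 542 CPM in WT matIMs. It was 399 to 404 CPM in Ezr-KOm moMs, 379 to 411 CPM in tnsIMs and 508 to 527 CPM in matIMs. In bulk libraries a level that differs through the share of dividing cells and one that differs through RNA per cell cannot be told apart.

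**Figure D1:**
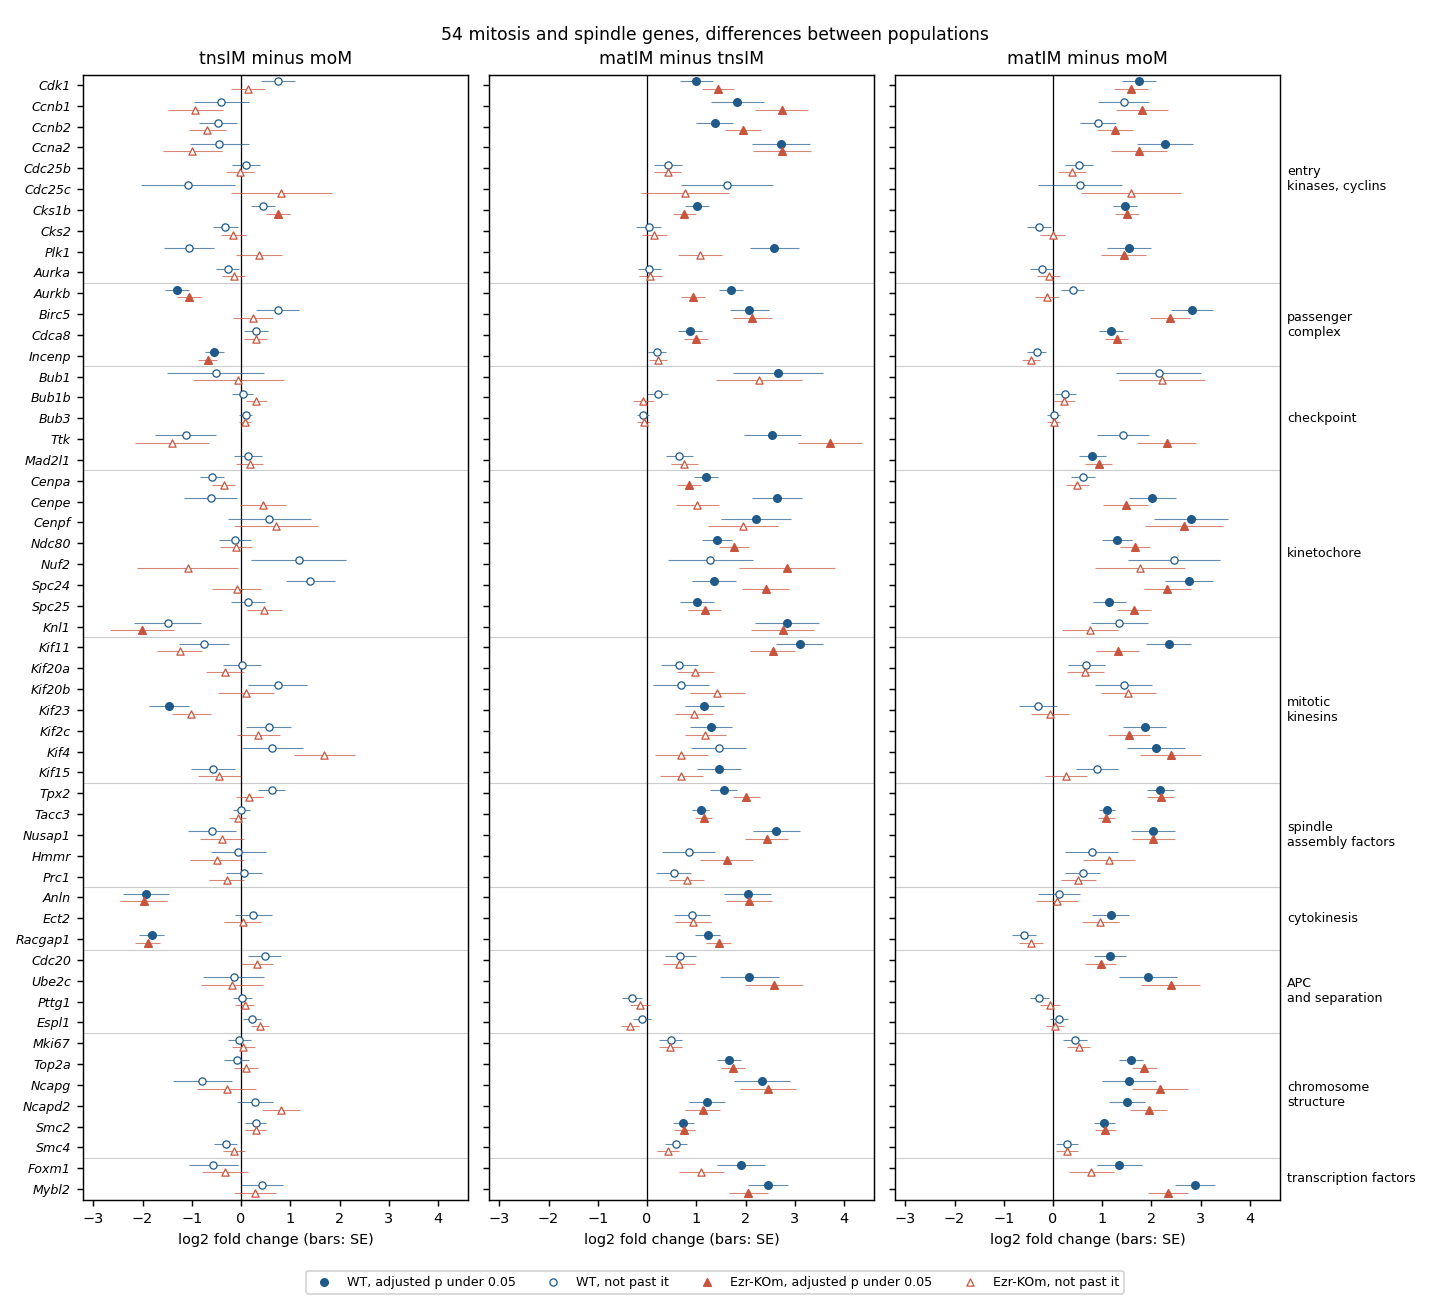
Log2 fold change of each of the 54 genes (rows, grouped by role) between populations, with bars of 1 SE, circles for WT and triangles for Ezr-KOm, filled where the adjusted p is under 0.05. In the comparisons of matIMs all filled points lie right of 0, with 34 and 27 in WT and 28 and 28 in Ezr-KOm, and in tnsIM minus moM few points are filled.

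Among the 10 kinases and cyclins of mitotic entry, 5 were called higher in matIMs than in tnsIMs in both genotypes, 4 higher than in moMs in both, and 4 in none of the 4 comparisons. Over all genes tested these shares were 6.46%, 10.3% and 62.7%. Cdk1, the kinase that drives entry into mitosis, stood at 1.08, 1.28 and 0.866 CPM in WT moMs, 1.63, 2.22 and 1.61 in WT tnsIMs and 3.902, 3.503 and 3.47 in WT matIMs. In the other genotype it stood at 1.44, 1.31 and 0.485 CPM in Ezr-KOm moMs, 0.914, 1.42 and 1.23 in Ezr-KOm tnsIMs and 3.33, 3.17 and 3.27 in Ezr-KOm matIMs. Every matIM library was above every moM and tnsIM library. The change from tnsIMs to matIMs was 1.00 ± 0.33 (SE, adjusted p = 0.0412) in WT and 1.44 ± 0.33 (SE, adjusted p = 0.0043) in Ezr-KOm. From moMs to matIMs it was 1.75 ± 0.34 (SE, adjusted p = 0.000851) in WT and 1.59 ± 0.34 (SE, adjusted p = 0.00185) in Ezr-KOm. WT tnsIMs lay above all WT moMs, but that difference of 0.74 ± 0.35 (SE, adjusted p = 0.138) missed the threshold.

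Ccnb1, a B-type cyclin that activates Cdk1, stood at 0.171, 0.953 and 1.26 CPM in WT moMs, 0.459, 0.507 and 0.862 in WT tnsIMs and 2.22, 2.18 and 2.24 in WT matIMs. Levels in the knockout were 0.522, 1.23 and 0.661 CPM in Ezr-KOm moMs, 0.249, 0.698 and 0.254 in Ezr-KOm tnsIMs and 3.41, 2.24 and 2.89 in Ezr-KOm matIMs. The matIM libraries lay above all others of their genotype, while moMs and tnsIMs overlapped. Over tnsIMs, Ccnb1 rose by 1.84 ± 0.54 (SE, adjusted p = 0.0209) in WT and 2.73 ± 0.54 (SE, adjusted p = 0.00122) in Ezr-KOm, and over moMs 1.43 ± 0.52 (SE, adjusted p = 0.0516) and 1.81 ± 0.52 (SE, adjusted p = 0.0157), of which the WT value missed the threshold. Ccnb2, the second B-type cyclin, stood at 0.797, 1.91 and 1.496 CPM in WT moMs, 0.667, 1.65 and 0.823 in WT tnsIMs and 2.75, 2.86 and 2.38 in WT matIMs. For Ezr-KOm its levels were 1.35, 1.62 and 1.41 CPM in Ezr-KOm moMs, 0.748, 1.197 and 0.721 in Ezr-KOm tnsIMs and 3.66, 4.03 and 2.81 in Ezr-KOm matIMs. Again no matIM library overlapped those of another population in its genotype. The rise over tnsIMs was 1.38 ± 0.38 (SE, adjusted p = 0.0137) in WT and 1.95 ± 0.37 (SE, adjusted p = 0.000871) in Ezr-KOm.

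Ccna2, cyclin A, which acts in S phase and G2, stood at 0.0569, 1.04 and 1.22 CPM in WT moMs, 0.751, 0.1902 and 0.744 in WT tnsIMs and 3.28, 3.16 and 5.11 in WT matIMs. It was found at 0.696, 0.656 and 1.01 CPM in Ezr-KOm moMs, 0.249, 0.419 and 0.509 in Ezr-KOm tnsIMs and 2.797, 2.27 and 2.89 in Ezr-KOm matIMs. Here too the matIM libraries stood apart from all others, and 1 WT moM library held a single count. Its rise over tnsIMs was 2.72 ± 0.58 (SE, adjusted p = 0.00238) in WT and 2.73 ± 0.59 (SE, adjusted p = 0.00247) in Ezr-KOm. Over moMs it was 2.27 ± 0.56 (SE, adjusted p = 0.0056) and 1.75 ± 0.56 (SE, adjusted p = 0.0297). Plk1, a kinase needed for spindle poles and kinetochores, was low, at 0.228, 0.704 and 0.709 CPM in WT moMs, 0.167, 0.3805 and 0.274 in WT tnsIMs and 1.596, 1.54 and 1.75 in WT matIMs. Ezr-KOm libraries held 0.478, 0.386 and 0.397 CPM in Ezr-KOm moMs, 0.332, 0.459 and 0.848 in Ezr-KOm tnsIMs and 1.04, 1.38 and 1.01 in Ezr-KOm matIMs. The matIM libraries were above the others in both genotypes. The call over tnsIMs held in WT, at 2.59 ± 0.49 (SE, adjusted p = 0.000788), and was missed in Ezr-KOm, at 1.07 ± 0.44 (SE, adjusted p = 0.112).

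Cks1b and Cks2, small subunits bound by Cdk1, went separate ways. Cks1b stood at 11.2, 8.16 and 6.06 CPM in WT moMs, 14.3, 11.2 and 9.17 in WT tnsIMs and 27.8, 24.01 and 18.2 in WT matIMs. Under the knockout it read 8.92, 6.903 and 6.43 CPM in Ezr-KOm moMs, 14.6, 13.7 and 9.07 in Ezr-KOm tnsIMs and 22.3, 20.7 and 20.4 in Ezr-KOm matIMs. No matIM library overlapped the other populations, and Ezr-KOm tnsIMs lay above Ezr-KOm moMs while in WT these overlapped. The rise over moMs was 1.47 ± 0.24 (SE, adjusted p = 0.000184) in WT and 1.51 ± 0.24 (SE, adjusted p = 0.000141) in Ezr-KOm. Cks1b was also the only one of the 54 called higher in tnsIMs than in moMs, in Ezr-KOm, at 0.75 ± 0.24 (SE, adjusted p = 0.0446), a call lost in 10 of 26 alternatives, where its adjusted p ranged up to 0.179. With the replicate number as a block, Cks1b was called higher in WT tnsIMs too, as was Spc24. Cks2 stood at 29.3, 18.98 and 19.9 CPM in WT moMs, 19.6, 15.7 and 19.2 in WT tnsIMs and 21.5, 17.8 and 16.6 in WT matIMs. It read 27.4, 19.2 and 18.6 CPM in Ezr-KOm moMs, 28.9, 13.5 and 16.4 in Ezr-KOm tnsIMs and 25.2, 17.8 and 21.9 in Ezr-KOm matIMs in the knockout. All 3 populations overlapped, and the interval (95%) of the matIM to tnsIM difference was -0.50 to 0.56 in WT.

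Cdc25b, a phosphatase that activates Cdk1, stood at 3.93, 6.13 and 3.66 CPM in WT moMs, 4.38, 4.44 and 5.92 in WT tnsIMs and 6.25, 5.98 and 7.53 in WT matIMs. Its Ezr-KOm levels were 3.48, 5.399 and 3.702 CPM in Ezr-KOm moMs, 2.45, 5.27 and 4.58 in Ezr-KOm tnsIMs and 5.49, 4.75 and 6.29 in Ezr-KOm matIMs. The populations lay close together, with a matIM to moM difference of 0.52 ± 0.28 (SE, adjusted p = 0.204) in WT and 0.39 ± 0.29 (SE, adjusted p = 0.382) in Ezr-KOm. Cdc25c, a phosphatase of the same family, was among the scarcest of the 54 and is better read in counts. WT moMs held 0, 8 and 12 counts, WT tnsIMs 2, 0 and 7 and WT matIMs 16, 3 and 11. Ezr-KOm moMs held 2, 2 and 2, tnsIMs 1, 14 and 2 and matIMs 8, 6 and 7 counts. In Ezr-KOm moMs it was at or under 3 counts in every library, and the ratio of matIM to moM CPM was 3.10 with a 95% interval of 1.21 to 9.39 that covers counting error only. That interval leaves out the spread between libraries. Cdc25c passed the filter only with the matIM libraries, and the fitted test called it in 0 of the 4 comparisons of matIMs.

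**Figure D2:**
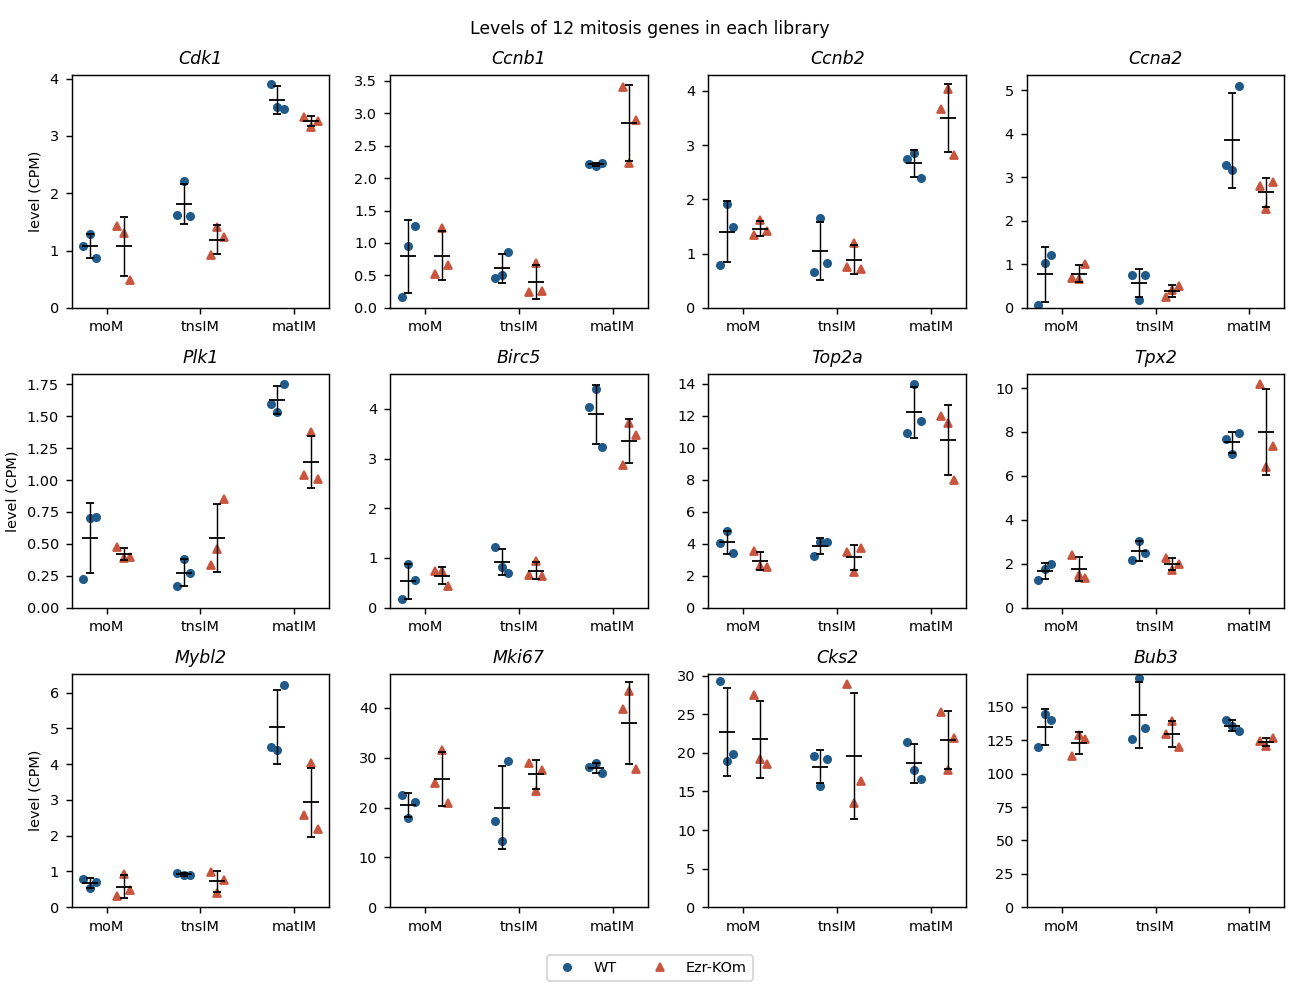
Level (CPM after TMM scaling, linear axes from 0) of 12 genes in each library by population, circles for WT and triangles for Ezr-KOm, with the mean and SD of 3 libraries. Cdk1, the cyclins, Plk1, Birc5, Top2a, Tpx2 and Mybl2 stand highest in matIMs of both genotypes, whereas Cks2 and Bub3 overlap across the populations.

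In the chromosomal passenger complex, which corrects wrong kinetochore attachments and later acts at the midzone, 3 of 4 genes were called higher in matIMs than in tnsIMs in both genotypes. The share over all genes was 6.46%. Birc5, or survivin, stood at 0.171, 0.8702 and 0.551 CPM in WT moMs, 1.21, 0.824 and 0.705 in WT tnsIMs and 4.03, 4.4 and 3.24 in WT matIMs. In Ezr-KOm it reached 0.739, 0.733 and 0.441 CPM in Ezr-KOm moMs, 0.665, 0.938 and 0.636 in Ezr-KOm tnsIMs and 2.87, 3.72 and 3.48 in Ezr-KOm matIMs. The matIM libraries were above every other library. Over moMs the rise was 2.82 ± 0.42 (SE, adjusted p = 5.54e-05) in WT, and 2.38 ± 0.41 (SE, adjusted p = 0.000252) in Ezr-KOm. Over tnsIMs it was 2.08 ± 0.40 (SE, adjusted p = 0.000906) and 2.14 ± 0.40 (SE, adjusted p = 0.000671). Cdca8, or borealin, was called in all 4 comparisons, with changes between 0.88 and 1.29.

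Aurkb, the kinase of the complex, instead was lowest in tnsIMs and about as high in moMs as in matIMs. It stood at 3.59, 5.84 and 6.77 CPM in WT moMs, 1.75, 2.41 and 2.43 in WT tnsIMs and 6.52, 7.73 and 7.19 in WT matIMs. Ezr-KOm levels were 4.18, 4.59 and 5.33 CPM in Ezr-KOm moMs, 2.16, 2.37 and 2.204 in Ezr-KOm tnsIMs and 3.69, 4.47 and 4.82 in Ezr-KOm matIMs. Every tnsIM library was below every moM and matIM library of its genotype, and in Ezr-KOm moMs and matIMs overlapped, as they did in WT. Aurkb changed from moMs to tnsIMs by -1.30 ± 0.25 (SE, adjusted p = 0.000925) in WT and -1.06 ± 0.24 (SE, adjusted p = 0.00574) in Ezr-KOm. It was higher in matIMs than in tnsIMs by 1.70 ± 0.25 (SE, adjusted p = 6.32e-05) and 0.94 ± 0.24 (SE, adjusted p = 0.00947). Incenp, the scaffold of the complex, stood at 13.3, 15.8 and 16.7 CPM in WT moMs, 12.1, 9.45 and 10.03 in WT tnsIMs and 10.02, 10.9 and 15.5 in WT matIMs. Its levels in Ezr-KOm were 16.9, 18.7 and 16.8 CPM in Ezr-KOm moMs, 11.4, 11.1 and 10.2 in Ezr-KOm tnsIMs and 11.3, 15.4 and 11.7 in Ezr-KOm matIMs. The tnsIM libraries lay below the moM libraries in both genotypes, by a small margin in WT. The change was -0.54 ± 0.19 (SE, adjusted p = 0.0447) in WT and -0.68 ± 0.18 (SE, adjusted p = 0.0169) in Ezr-KOm, and the WT call was lost in 15 of 26 alternatives, where its adjusted p ranged up to 0.168.

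Of the 5 genes of the spindle assembly checkpoint, only Ttk was called higher in matIMs than in tnsIMs in both genotypes. Mad2l1 alone was called higher than in moMs in both. Over all genes these shares were 6.46% and 10.3%. Ttk passed the filter on low counts only with the matIM libraries, where it stands highest, so its call is not independent of the filter. Ttk, the kinase Mps1 that starts the checkpoint signal, stood at 0.399, 0.207 and 0.512 CPM in WT moMs, 0.292, 0.127 and 0.0784 in WT tnsIMs and 1.02, 0.983 and 1.01 in WT matIMs. Ezr-KOm held 0.217, 0.0771 and 0.132 CPM in Ezr-KOm moMs, 0.0416, 0.0599 and 0.0424 in Ezr-KOm tnsIMs and 0.466, 1.17 and 0.503 in Ezr-KOm matIMs. The matIM libraries lay above all others of their genotype, at few counts. Its rise over tnsIMs was 2.55 ± 0.58 (SE, adjusted p = 0.00405) in WT and 3.71 ± 0.65 (SE, adjusted p = 0.000425) in Ezr-KOm. Ezr-KOm tnsIMs held 1, 3 and 1 counts, all at or under 3, and matIMs 13, 34 and 12, a ratio of 14.3 with a counting interval of 5.79 to 45.6.

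Bub3, the checkpoint protein that brings Bub1 and BubR1 to kinetochores, was the most abundant of the 54 in CPM. It stood at 119.7, 144 and 140.5 CPM in WT moMs, 126, 172 and 134 in WT tnsIMs and 140.1, 136 and 132 in WT matIMs. In Ezr-KOm it stood at 113, 129 and 126 CPM in Ezr-KOm moMs, 129.7, 139.6 and 119.8 in Ezr-KOm tnsIMs and 124, 121 and 127 in Ezr-KOm matIMs. The populations overlapped throughout, and the 95% interval of the matIM to tnsIM difference was -0.35 to 0.19 in WT and -0.34 to 0.20 in Ezr-KOm. Bub1b, the checkpoint protein BubR1, was called in none of the comparisons of populations either. Bub1, the kinase beside it, was called in WT matIMs over tnsIMs alone, at 2.66 ± 0.91 (SE, adjusted p = 0.0496), and its change in Ezr-KOm was 2.27 ± 0.87 (SE, adjusted p = 0.0819). With the replicate number as a block Bub1 was called over moMs in both genotypes, but not with a block for each genotype. By DESeq2 it was called over both populations in both genotypes.

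Of the 8 centromere and kinetochore genes, 5 were called higher in matIMs than in tnsIMs in both genotypes and 5 higher than in moMs in both, and 0 of the 8 went uncalled in all 4 comparisons. Over all genes the shares were 6.46%, 10.3% and, for uncalled, 62.7%. Among the 5 over moMs, Cenpf passed the filter only with the matIM libraries. Ndc80, Spc24 and Spc25, subunits of the Ndc80 complex that binds microtubule ends, were called in all 4. Ndc80 stood at 0.911, 1.41 and 1.46 CPM in WT moMs, 1.17, 1.01 and 1.29 in WT tnsIMs and 3.19, 3.33 and 2.87 in WT matIMs. Its Ezr-KOm levels were 1.04, 1.35 and 0.661 CPM in Ezr-KOm moMs, 0.789, 0.858 and 1.23 in Ezr-KOm tnsIMs and 3.299, 3.17 and 3.31 in Ezr-KOm matIMs. The matIM libraries stood apart from the others. Ndc80 rose over tnsIMs by 1.42 ± 0.31 (SE, adjusted p = 0.00273) in WT and 1.77 ± 0.31 (SE, adjusted p = 0.000419) in Ezr-KOm. Nuf2, the partner of Ndc80, was called only in Ezr-KOm matIMs over tnsIMs, at 2.85 ± 0.97 (SE, adjusted p = 0.0491), and its WT change was 1.29 ± 0.87 (SE, adjusted p = 0.382), with WT tnsIM levels of 0.209, 0.1902 and 1.49 CPM. By DESeq2 it was also called over moMs in WT.

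Spc24 stood at 0.569, 0.207 and 0.433 CPM in WT moMs, 1.13, 1.33 and 0.744 in WT tnsIMs and 3.503, 2.69 and 1.97 in WT matIMs. In Ezr-KOm its levels were 0.826, 0.424 and 0.176 CPM in Ezr-KOm moMs, 0.665, 0.359 and 0.339 in Ezr-KOm tnsIMs and 2.44, 2.27 and 2.47 in Ezr-KOm matIMs. WT tnsIMs lay above WT moMs, which was not so in Ezr-KOm, and matIMs lay above both. The tnsIM to moM difference was 1.41 ± 0.50 (SE, adjusted p = 0.052) in WT and -0.09 ± 0.50 (SE, adjusted p = 0.94) in Ezr-KOm. With the replicate number as a block the WT value was 1.40, with an adjusted p of 0.0235, and passed the threshold. Knl1, the kinetochore scaffold that recruits the checkpoint, stood at 0.285, 0.497 and 0.551 CPM in WT moMs, 0.0417, 0.254 and 0.196 in WT tnsIMs and 1.197, 0.769 and 1.49 in WT matIMs. Ezr-KOm levels were 0.522, 0.617 and 0.485 CPM in Ezr-KOm moMs, 0.0416, 0.0798 and 0.297 in Ezr-KOm tnsIMs and 0.466, 1.03 and 1.26 in Ezr-KOm matIMs. The tnsIM libraries lay lowest in both genotypes, at few counts, with 1, 4 and 5 in WT and 1, 4 and 7 in Ezr-KOm. The fall from moMs was -2.01 ± 0.65 (SE, adjusted p = 0.0468) in Ezr-KOm, a call lost in 17 of 25 alternatives, and -1.49 ± 0.68 (SE, adjusted p = 0.128) in WT, which missed the threshold.

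Cenpa, the histone H3 form that marks centromeres, was called over tnsIMs in both genotypes, by 1.20 and 0.85, and over moMs in neither. With the replicate number as a block it was called higher than in moMs in both. Cenpe, a kinesin of the kinetochore, was called over moMs in both, by 2.02 and 1.47. Cenpf, a large protein of the outer kinetochore, was called over moMs in both as well, by 2.79 and 2.66, but passed the filter only with the matIM libraries. For Cenpf these rest on 3, 2 and 1 counts in Ezr-KOm moMs, all at or under 3, against 13, 12 and 19 in matIMs, a ratio of 6.50 with a counting interval of 2.76 to 18.7.

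Of the 7 mitotic kinesins, Kif11 was the only one called in all 4 comparisons of matIMs, where 4.88% of all genes were called higher in all 4. With the replicate number as a block Kif2c was called in all 4 as well. Kif11, or Eg5, which pushes the spindle poles apart, stood at 0.399, 0.704 and 0.866 CPM in WT moMs, 0.292, 0.127 and 0.705 in WT tnsIMs and 3.37, 3.84 and 3.02 in WT matIMs. It read 1.696, 1.23 and 0.793 CPM in Ezr-KOm moMs, 0.291, 0.718 and 0.509 in Ezr-KOm tnsIMs and 2.65, 3.303 and 3.31 in Ezr-KOm matIMs. The matIM libraries were above all others in both genotypes, and in Ezr-KOm the tnsIMs lay below the moMs. The rise over tnsIMs was 3.10 ± 0.48 (SE, adjusted p = 0.000126) in WT and 2.56 ± 0.46 (SE, adjusted p = 0.000472) in Ezr-KOm. Over moMs it was 2.35 ± 0.46 (SE, adjusted p = 0.00078) and 1.31 ± 0.43 (SE, adjusted p = 0.0333). Kif2c, a microtubule depolymerase, and Kif4, a chromosome-bound kinesin, were called over moMs in both genotypes. Kif4 stood at 0.261, 0.116 and 0.176 CPM in Ezr-KOm moMs and 0.416, 0.479 and 0.933 CPM in Ezr-KOm tnsIMs, without overlap, but the difference of 1.69 ± 0.62 (SE, adjusted p = 0.0787) missed the threshold. Kif20a and Kif20b, kinesins of late mitosis and cytokinesis, were called in none of the 4.

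Of the 5 spindle assembly factors, Tpx2, Tacc3 and Nusap1 were called in all 4 comparisons and Prc1 in none. Of all genes, 4.88% were called higher in all 4 and 62.7% were called in none. Tpx2, which activates Aurora A on the spindle, stood at 1.25, 1.74 and 1.97 CPM in WT moMs, 2.17, 3.04 and 2.51 in WT tnsIMs and 7.67, 7.01 and 7.94 in WT matIMs. Ezr-KOm levels were 2.39, 1.504 and 1.37 CPM in Ezr-KOm moMs, 2.24, 1.696 and 1.99 in Ezr-KOm tnsIMs and 10.2, 6.399 and 7.38 in Ezr-KOm matIMs. The matIM libraries lay far above the rest, and WT tnsIMs lay slightly above WT moMs. The rise over moMs was 2.18 ± 0.28 (SE, adjusted p = 9.75e-06) in WT and 2.19 ± 0.27 (SE, adjusted p = 8.74e-06) in Ezr-KOm. Over tnsIMs it was 1.56 ± 0.27 (SE, adjusted p = 0.000337) and 2.02 ± 0.27 (SE, adjusted p = 2.55e-05). Between WT tnsIMs and moMs the difference of 0.62 ± 0.28 (SE, adjusted p = 0.123) missed the threshold.

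Tacc3, which holds spindle microtubules together, was more abundant and changed by a steadier amount. It stood at 8.77, 8.58 and 11.02 CPM in WT moMs, 9.34, 10.5 and 8.699 in WT tnsIMs and 23.4, 16.3 and 21.1 in WT matIMs. In Ezr-KOm it was at 8.31, 10.6 and 8.903 CPM in Ezr-KOm moMs, 8.48, 8.72 and 9.37 in Ezr-KOm tnsIMs and 19.4, 18.4 and 21.3 in Ezr-KOm matIMs. The moM and tnsIM libraries overlapped and the matIM libraries stood above them. The 4 changes were 1.09 and 1.10 in WT, and 1.15 and 1.08 in Ezr-KOm, with adjusted p from 0.000109 to 0.000134. Nusap1, which bundles spindle microtubules, changed by 2.63 and 2.04 in WT and by 2.43 and 2.04 in Ezr-KOm.

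The cytokinesis genes Racgap1 and Anln had, with Aurkb, the smallest p-values of the 54 among the falls from moMs to tnsIMs in both genotypes. Racgap1, the GTPase-activating subunit of centralspindlin (chr15:99518377-99549537 on GRCm39, minus strand), stood at 17.3, 27.2 and 29.6 CPM in WT moMs, 6.09, 6.28 and 8.58 in WT tnsIMs and 11.7, 17.2 and 20.4 in WT matIMs. In Ezr-KOm it stood at 17.2, 14.7 and 24.7 CPM in Ezr-KOm moMs, 4.197, 5.81 and 5.09 in Ezr-KOm tnsIMs and 13.4, 13.9 and 14.3 in Ezr-KOm matIMs. Every tnsIM library was below every moM and matIM library of its genotype. The change from moMs to tnsIMs was -1.82 ± 0.25 (SE, adjusted p = 5.19e-05) in WT and -1.90 ± 0.25 (SE, adjusted p = 6.23e-05) in Ezr-KOm. From tnsIMs to matIMs it was 1.23 ± 0.25 (SE, adjusted p = 0.00144) and 1.45 ± 0.25 (SE, adjusted p = 0.000351). Between moMs and matIMs the difference was -0.59 ± 0.24 (SE, adjusted p = 0.0862) in WT and -0.45 ± 0.24 (SE, adjusted p = 0.211) in Ezr-KOm. The WT difference passed the threshold with the replicate number as a block.

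Anln, or anillin, a scaffold of the contractile ring, stood at 2.16, 1.91 and 2.87 CPM in WT moMs, 0.459, 1.08 and 0.353 in WT tnsIMs and 1.91, 2.73 and 2.87 in WT matIMs. Its Ezr-KOm levels were 1.13, 1.85 and 2.73 CPM in Ezr-KOm moMs, 0.582, 0.339 and 0.551 in Ezr-KOm tnsIMs and 2.22, 2.75 and 1.05 in Ezr-KOm matIMs. Within each genotype the tnsIM libraries were lowest without overlap, and moMs and matIMs overlapped. Anln changed by -1.93 ± 0.47 (SE, adjusted p = 0.00656) from moMs to tnsIMs in WT and by -1.98 ± 0.47 (SE, adjusted p = 0.00704) in Ezr-KOm. From tnsIMs to matIMs it changed by 2.04 ± 0.47 (SE, adjusted p = 0.00424) and 2.06 ± 0.47 (SE, adjusted p = 0.00368). Ect2, the exchange factor that activates RhoA at the midzone, was called once, at 1.17 ± 0.37 (SE, adjusted p = 0.0262) over moMs in WT, and over tnsIMs in both genotypes with the replicate number as a block. That block called it over moMs in Ezr-KOm as well.

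Kif23, the kinesin partner of Racgap1 in centralspindlin, had the same order of populations. It stood at 7.63, 10.1 and 11.2 CPM in WT moMs, 3.75, 1.27 and 5.29 in WT tnsIMs and 5.63, 7.95 and 9.99 in WT matIMs. Ezr-KOm levels were 11.96, 5.98 and 5.77 CPM in Ezr-KOm moMs, 4.74, 2.57 and 4.54 in Ezr-KOm tnsIMs and 5.77, 8.15 and 8.85 in Ezr-KOm matIMs. The tnsIM libraries lay below the moM libraries in both genotypes. The change was -1.46 ± 0.40 (SE, adjusted p = 0.0133) in WT and -1.01 ± 0.39 (SE, adjusted p = 0.0996) in Ezr-KOm, where it missed the threshold.

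In all, 5 of the 54 (9.26%) were called lower in WT tnsIMs than in moMs and 0 higher, against 8.61% of all genes lower and 13% higher. In Ezr-KOm mice 5 (9.26%) were called lower and 1 (1.85%) higher, with 5.04% and 9.23% of all genes. The median change of the 54 was -0.04 in WT and -0.06 in Ezr-KOm, with 0.01 over all genes in both. Racgap1, Anln, Aurkb and Incenp were called lower in both genotypes, as were 4.52% of all genes. With the replicate number as a block, 8 of the 54 were called in WT, 2 higher (Cks1b and Spc24) and 6 lower, with Cenpa added to the lower ones. The WT count was 3 without replicate 3 of the WT moMs and also without replicate 2 of the WT tnsIMs, and without Ezr-KOm moM replicate 2 or replicate 3 the Ezr-KOm count was 3. Under upper-quartile scaling and under library totals 1 gene was called higher and 4 lower in WT, and in Ezr-KOm these were 1 and 4, and 1 and 3.

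**Figure D3:**
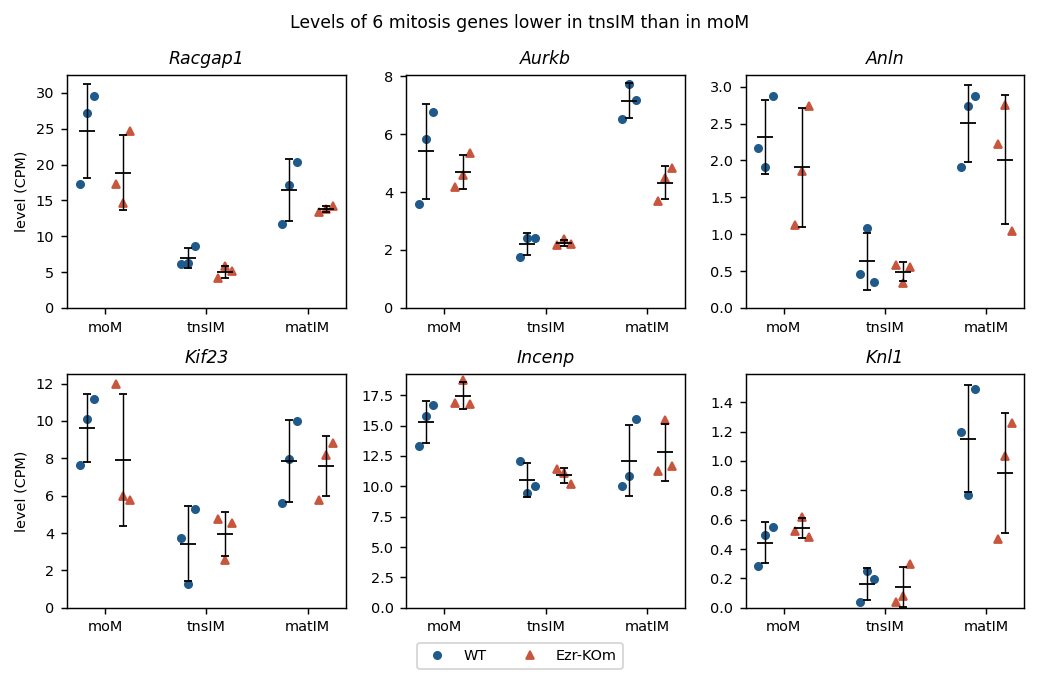
Level (CPM after TMM scaling, linear axes from 0) of 6 genes in each library by population, circles for WT and triangles for Ezr-KOm, with the mean and SD of 3 libraries. In each of Racgap1, Aurkb, Anln, Kif23, Incenp and Knl1 the tnsIM libraries lie below the moM libraries of their genotype.

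Of the 4 genes of the anaphase-promoting complex and sister separation, Ube2c was called in all 4 comparisons of matIMs and Cdc20 over moMs in both genotypes. Of all genes, 4.88% were called higher in all 4 and 10.3% over moMs in both. Cdc20, the activator that the checkpoint restrains, stood at 2.05, 1.57 and 2.44 CPM in WT moMs, 1.63, 3.87 and 3.02 in WT tnsIMs and 4.301, 4.53 and 4.695 in WT matIMs. In Ezr-KOm it was at 1.91, 2.08 and 1.63 CPM in Ezr-KOm moMs, 3.49, 1.76 and 1.82 in Ezr-KOm tnsIMs and 3.41, 3.72 and 3.899 in Ezr-KOm matIMs. The matIM libraries were above the moM libraries in both genotypes, and in Ezr-KOm they overlapped the tnsIM libraries. The rise over moMs was 1.15 ± 0.32 (SE, adjusted p = 0.0127) in WT and 0.97 ± 0.32 (SE, adjusted p = 0.0365) in Ezr-KOm. Ube2c, the ubiquitin-conjugating enzyme of the complex, stood at 0.114, 0.953 and 0.6299 CPM in WT moMs, 0.834, 0.317 and 0.392 in WT tnsIMs and 1.596, 3.63 and 1.45 in WT matIMs. Its levels in the knockout were 0.783, 0.27 and 0.397 CPM in Ezr-KOm moMs, 0.208, 0.419 and 0.636 in Ezr-KOm tnsIMs and 2.33, 3.13 and 2.14 in Ezr-KOm matIMs. No matIM library overlapped the others. Ube2c rose over tnsIMs by 2.08 ± 0.60 (SE, adjusted p = 0.0187) in WT and 2.58 ± 0.59 (SE, adjusted p = 0.00417) in Ezr-KOm. Pttg1 (securin) and Espl1 (separase), the inhibitor and the protease that cuts cohesin, were called in none, with levels over the 18 libraries of 22.5 to 50.3 CPM for Pttg1 and 17.8 to 31 CPM for Espl1.

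Of the 6 genes of chromosome structure, 4 were called in all 4 comparisons, and Mki67 and Smc4 in none. Over all genes these shares were 4.88% and 62.7%. Top2a, the topoisomerase that untangles sister chromatids (chr11:98883769-98915015 on GRCm39, minus strand), stood at 4.04, 4.81 and 3.39 CPM in WT moMs, 3.25, 4.12 and 4.11 in WT tnsIMs and 10.9, 14.01 and 11.7 in WT matIMs. Ezr-KOm libraries stood at 3.57, 2.58 and 2.56 CPM in Ezr-KOm moMs, 3.45, 2.25 and 3.73 in Ezr-KOm tnsIMs and 11.98, 11.6 and 7.97 in Ezr-KOm matIMs. The matIM libraries were above all others. The rise over tnsIMs was 1.67 ± 0.24 (SE, adjusted p = 6.35e-05) in WT and 1.75 ± 0.24 (SE, adjusted p = 4.15e-05) in Ezr-KOm. Over moMs it was 1.58 ± 0.24 (SE, adjusted p = 8.23e-05) and 1.86 ± 0.25 (SE, adjusted p = 1.74e-05). The condensin subunits Ncapg, Ncapd2 and Smc2 rose over tnsIMs by 2.33, 1.22 and 0.74 in WT and by 2.46, 1.13 and 0.76 in Ezr-KOm. Ncapd2 stood at 1.35, 1.77 and 2.03 CPM in Ezr-KOm moMs and 2.91, 3.53 and 2.59 CPM in tnsIMs, a difference of 0.81 ± 0.38 (SE, adjusted p = 0.177) that missed the threshold.

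Mki67, which encodes the proliferation marker Ki-67, stood at 22.6, 17.8 and 21.2 CPM in WT moMs, 17.2, 13.3 and 29.3 in WT tnsIMs and 28.1, 28.9 and 26.8 in WT matIMs. In the knockout it stood at 24.9, 31.6 and 20.9 CPM in Ezr-KOm moMs, 29, 23.4 and 27.5 in Ezr-KOm tnsIMs and 39.8, 43.3 and 27.8 in Ezr-KOm matIMs. The populations overlapped in part, with the WT matIM libraries above the WT moM libraries. The difference between matIMs and tnsIMs was 0.48 ± 0.24 (SE, adjusted p = 0.196) in WT and 0.47 ± 0.23 (SE, adjusted p = 0.196) in Ezr-KOm, and between matIMs and moMs 0.45 ± 0.24 (SE, adjusted p = 0.193) and 0.52 ± 0.23 (SE, adjusted p = 0.127). None of these 4 passed the threshold, and the 95% interval of the WT matIM to moM difference was -0.05 to 0.94.

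Mybl2 and Foxm1 encode transcription factors that act with MuvB on late cell-cycle genes. Mybl2 stood at 0.797, 0.539 and 0.709 CPM in WT moMs, 0.959, 0.888 and 0.901 in WT tnsIMs and 4.48, 4.4 and 6.22 in WT matIMs. Ezr-KOm levels were 0.304, 0.926 and 0.485 CPM in Ezr-KOm moMs, 0.997, 0.399 and 0.763 in Ezr-KOm tnsIMs and 2.58, 4.03 and 2.18 in Ezr-KOm matIMs. The matIM libraries stood far above the rest. Mybl2 rose over moMs by 2.89 ± 0.41 (SE, adjusted p = 3.99e-05) in WT and 2.34 ± 0.41 (SE, adjusted p = 0.000338) in Ezr-KOm, and over tnsIMs by 2.45 ± 0.40 (SE, adjusted p = 0.000218) and 2.06 ± 0.40 (SE, adjusted p = 0.00109). Foxm1 stood at 0.7401, 0.953 and 1.102 CPM in WT moMs, 0.292, 1.08 and 0.588 in WT tnsIMs and 1.86, 2.56 and 2.76 in WT matIMs. In Ezr-KOm it was at 1, 1.196 and 1.15 CPM in Ezr-KOm moMs, 0.374, 1.496 and 0.721 in Ezr-KOm tnsIMs and 1.29, 2.17 and 2.31 in Ezr-KOm matIMs. In WT the matIM libraries were above all others, and in Ezr-KOm they overlapped the tnsIM libraries. The rise over tnsIMs was 1.91 ± 0.49 (SE, adjusted p = 0.00833) in WT and 1.10 ± 0.46 (SE, adjusted p = 0.113) in Ezr-KOm, of which the latter missed the threshold and passed it with the replicate number as a block.

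The 14 genes called in none of the 4 comparisons of matIMs were Cdc25b, Cdc25c, Cks2, Aurka, Incenp, Bub1b, Bub3, Kif20a, Kif20b, Prc1, Pttg1, Espl1, Mki67 and Smc4. Of these, Smc4 in WT and Kif20a and Kif20b in Ezr-KOm were called higher in matIMs than in tnsIMs with the replicate number as a block. Kif20b was then also called over moMs in both genotypes. Abundance went with the size of the change. The 27 genes with the lower mean level (0.214 to 1.83 CPM) had a median change from WT tnsIMs to matIMs of 2.04, with 21 called, and the 27 others (1.98 to 131.8 CPM) had 0.68, with 13 called. In Ezr-KOm these medians were 2.06 and 0.76, with 16 and 12 called. The median SE was 0.50 in the lower group and 0.24 in the upper in WT, so the scarce genes carry the larger changes at the larger errors. Requiring at least 10 counts in every library left 30 of the 54, of which 13 and 14 were called over tnsIMs in WT and Ezr-KOm. Without WT tnsIM replicate 1, 22 genes were called over tnsIMs in WT.

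The scarcity was greatest in 2 libraries. WT tnsIM replicate 2, the library with the smallest total, held 10 of the 54 at or under 3 counts and 2 at 0, and WT moM replicate 1 held 8 and 3. In the 6 matIM libraries at most 1 gene was at or under 3 counts. Without WT tnsIM replicate 2, 25 genes were called higher in WT matIMs than in tnsIMs, and without WT moM replicate 1, 22 higher than in moMs. Per kilobase of exon, the median over the 54 genes was 0.205 to 0.302 CPM per kb in moMs and tnsIMs and 0.656 to 0.687 CPM per kb in matIMs. On this scale Cks2, Pttg1, Bub3 and Cks1b stood highest. Of the 54 genes, 32 share exonic bases with another gene, 30 of them with 1 on the opposite strand, and at least 25% of the exonic length is shared in Aurka, Cks2, Kif20a, Ncapg and Spc25. The library kit does not mark strand, so these reads cannot be told apart. Pseudogenes near-identical over most of their own length, which can be a part of the gene, were found for 13 of the 54. Bub3, Cdc20, Cks1b, Cks2, Mki67, Mybl2, Plk1, Racgap1 and Ube2c are among them, so their counts are uncertain to that extent. Only 4 have such a copy in the count table. Over all libraries the copies held 112 counts against 349 for Plk1, 58 against 518 for Ube2c and 29 against 2009 for Mad2l1. For Cks2 they held 16 and 26 against 9086.

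Between Ezr-KOm and WT cells of one population, none of the mitosis genes passed the adjusted threshold. The Ezr level checked the labels, since it was 497 to 741 CPM in the WT libraries and 93.8 to 282 CPM in the Ezr-KOm libraries, without overlap. In moMs Ezr was at 497 to 593 CPM in WT and 160 to 282 CPM in Ezr-KOm. It was at 515 to 679 and 126 to 234 CPM in tnsIMs, and at 611 to 741 and 93.8 to 167 CPM in matIMs. Ezr was thus lowered and not absent. Of the 54 genes, edgeR called 0 in each of the 3 populations, against backgrounds of 0.171%, 0.164% and 0.152% of all genes called, and DESeq2 called 0 in each as well. At an unadjusted p under 0.05, edgeR and DESeq2 both gave 1, 4 and 2 of the 54. Under the replicate block edgeR gave 2, 4 and 2, with Racgap1 added in moMs (-0.38, unadjusted p = 0.0482) and in place of Ttk in tnsIMs (-0.46, unadjusted p = 0.0276). Its adjusted p was 0.926 and 0.847, and it was lower in Ezr-KOm in 3 of 3 pairs of equal number in both populations, 1 of the moM pairs being nearly equal. The study called genes at an absolute log2 fold change above 0.75 with an unadjusted p under 0.05. By this rule 0 were higher and 1 lower in moMs, against 1.55% and 0.961% of all genes. In tnsIMs 1 was higher and 2 lower, against 1.08% and 0.759%, and in matIMs 0 and 1, against 1.41% and 0.987%. The median difference of the 54, Ezr-KOm minus WT, was -0.08 for moMs, -0.12 for matIMs and -0.17 for tnsIMs, where the median over all genes was near 0.

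In tnsIMs, Cenpe stood at 0.209, 0.1902 and 0.392 CPM in WT and 0.789, 0.858 and 0.805 CPM in Ezr-KOm, without overlap. The difference was 1.58 ± 0.50 (SE), with an unadjusted p of 0.00548 and an adjusted p of 0.894. With the replicate number as a block it was 1.66, with an unadjusted p of 0.00348 and an adjusted p of 0.424. Spc24 stood at 1.13, 1.33 and 0.744 CPM in WT tnsIMs and 0.665, 0.359 and 0.339 CPM in Ezr-KOm tnsIMs, so that every knockout library was lower. Its difference was -1.23 ± 0.48, with an unadjusted p of 0.0195 and an adjusted p of 1. The block gave -1.26, with an unadjusted p of 0.00786 and an adjusted p of 0.632. Bub1b stood at 10.4, 10.5 and 9.95 CPM in WT and 13.3, 19.8 and 10.5 CPM in Ezr-KOm tnsIMs, and the lowest Ezr-KOm library met the highest WT library. The difference of 0.50 ± 0.22 had an unadjusted p of 0.031 and was below the fold of the study's rule.

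Ttk had few counts in moMs and tnsIMs, and fewer in Ezr-KOm. In moMs WT held 7, 5 and 13 counts and Ezr-KOm 5, 2 and 3, and in tnsIMs WT held 7, 2 and 2 and Ezr-KOm 1, 3 and 1. In CPM the genotypes overlapped in moMs and stood apart in tnsIMs. The difference was -1.37 ± 0.62 in moMs, with an unadjusted p of 0.0396, and -1.65 ± 0.74 in tnsIMs, with an unadjusted p of 0.0383. With the replicate number as a block the tnsIM value no longer met the study's rule. By DESeq2 the rule named Kif11 in place of Ttk in moMs, and Nuf2 in place of Ttk in tnsIMs.

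In matIMs, Aurkb stood at 6.52, 7.73 and 7.19 CPM in WT and 3.69, 4.47 and 4.82 CPM in Ezr-KOm, and every knockout library was below every WT library. The difference was -0.72 ± 0.24, with an unadjusted p of 0.00678 and an adjusted p of 0.777, at a fold just under that of the study's rule. With the replicate number as a block it was -0.73, with an unadjusted p of 0.00162 and an adjusted p of 0.269. Mybl2 stood at 4.48, 4.4 and 6.22 CPM in WT and 2.58, 4.03 and 2.18 CPM in Ezr-KOm matIMs, also without overlap. The difference of -0.78 ± 0.37 had an unadjusted p of 0.0493 and an adjusted p of 1, and the study's rule was missed in 16 of 24 alternatives. The count of 1 gene in matIMs became 0 without any 1 of the WT moM or WT tnsIM libraries, Ezr-KOm moM replicate 3, Ezr-KOm tnsIM replicate 3, WT matIM replicate 2 or 3, or Ezr-KOm matIM replicate 1. Without Ezr-KOm moM replicate 2 the count in moMs was 0, and without WT moM replicate 1, WT tnsIM replicate 2 or WT tnsIM replicate 3 it was 2. In tnsIMs it was 5 without WT moM replicate 1 or WT tnsIM replicate 3 and 1 without Ezr-KOm tnsIM replicate 2.

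For most of the 54 genes the data leave room for a genotype difference of some size. The 95% interval of the Ezr-KOm minus WT difference in tnsIMs was -1.30 to 0.12 for Cdk1, -0.81 to 0.22 for Top2a and -0.09 to 0.90 for Mki67. For Ccnb1 and Birc5 it was -1.71 to 0.65 and -1.13 to 0.59. For Bub3, the most abundant, it was -0.42 to 0.12. Whether the genotype difference itself differed between populations was tested as an interaction, and 0 of the 54 were called in each of 3 interactions by edgeR and by DESeq2, with 0%, 0% and 0% of all genes called. At an unadjusted p under 0.05, both tools gave 1 (Spc24, tnsIM minus moM, -1.49), 3 (Plk1, Aurkb and Cenpe, matIM minus tnsIM, edgeR values -1.52, -0.76 and -1.61) and 0.

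**Figure D4:**
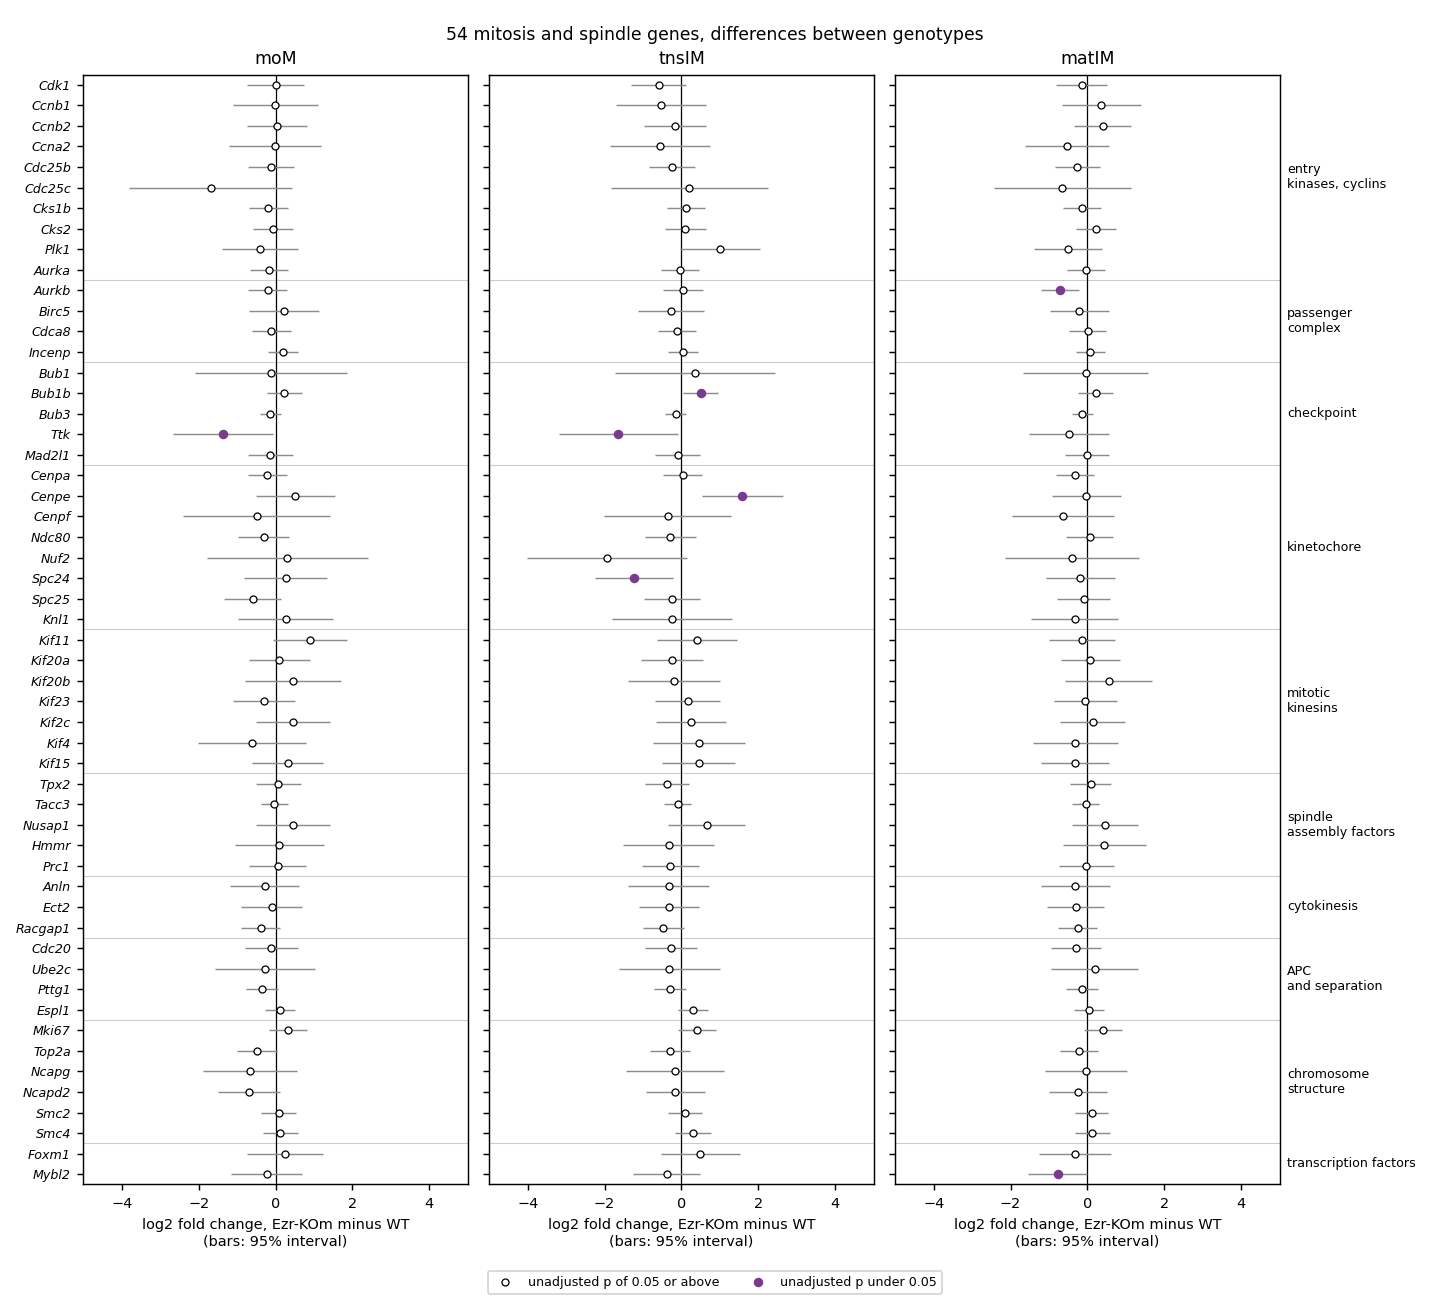
Log2 fold change of each of the 54 genes (rows, grouped by role), Ezr-KOm minus WT, in moMs, tnsIMs and matIMs, with bars of the 95% interval and filled points where the unadjusted p is under 0.05. Filled points number 1, 4 and 2, and 0 of the 54 passed the adjusted threshold.

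Of 42 other mitosis genes tested, 17 were called higher in WT matIMs than in tnsIMs and 1 lower, and 24 and 0 in Ezr-KOm. The shares over all genes were 8.32% and 10.2% in WT, and 8.37% and 9.85% in Ezr-KOm. Melk, a kinase of dividing cells, had the smallest p in both, with 2.92 ± 0.39 (SE, adjusted p = 2.23e-05) in WT and 2.59 ± 0.37 (SE, adjusted p = 5.19e-05) in Ezr-KOm. Over moMs, 21 were called higher and 1 lower in WT, and 23 and 0 in Ezr-KOm, against 13.4% and 11.4%, and 12.5% and 10.7%, of all genes. Between tnsIMs and moMs 1 was called lower in each genotype, Arhgap11a in WT at -0.89 ± 0.31 (SE, adjusted p = 0.0472) and Cep55, a protein of abscission, in Ezr-KOm at -1.18 ± 0.38 (SE, adjusted p = 0.0461). Of all genes, 8.61% were called lower in WT and 5.04% in Ezr-KOm.

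Of 40 DNA replication genes, 10 were called higher in tnsIMs than in moMs in WT, where 13% of all genes were, and 8 in Ezr-KOm, where 9.23% were. None was called lower in either by edgeR, with medians of 0.34 and 0.27. Mcm6, a subunit of the replicative helicase, rose from moMs to tnsIMs by 0.93 ± 0.17 (SE, adjusted p = 0.000583) in WT and 0.67 ± 0.17 (SE, adjusted p = 0.0092) in Ezr-KOm. From tnsIMs to matIMs 24 were called higher in WT and 19 in Ezr-KOm, where 8.32% and 8.37% of all genes were, with medians of 0.90 and 0.77. Uhrf1, which keeps DNA methylation through replication, rose in that step by 1.93 ± 0.28 (SE, adjusted p = 6.11e-05) in WT and 2.40 ± 0.28 (SE, adjusted p = 7.42e-06) in Ezr-KOm. Whether the list of replication genes and the 54 mitosis genes differ in their change was not tested.

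Markers of cell types moved with the populations too. All 9 monocyte and macrophage markers had counts in every group. Their summed level was 6271 to 7062 CPM in WT moMs and 3405 to 3812 CPM in WT matIMs. Of the 9, 6 were called lower, against 11.4% of all genes. In WT, 7 alveolar macrophage markers summed to 5232 to 6532 CPM in moMs, 1132 to 1559 in tnsIMs and 468 to 612 in matIMs. In Ezr-KOm these sums were 4931 to 8384, 938 to 2047 and 400 to 709 CPM. The 7 neutrophil markers summed to 358 to 517, 194 to 275 and 155 to 188 CPM in WT, and 300 to 486, 162 to 318 and 103 to 291 CPM in Ezr-KOm. What these cells add to the moM levels was not tested. Of 8 dendritic cell markers, 6 were called higher in WT matIMs than in moMs and 5 higher than in tnsIMs, at summed levels of 93.1 to 139 CPM in moMs, 172 to 408 in tnsIMs and 2502 to 3544 in matIMs. In Ezr-KOm these were 101 to 123, 237 to 338 and 3135 to 3363 CPM, with 6 and 5 of 8 called. Over all genes, the shares higher than in moMs and tnsIMs were 13.4% and 8.32% in WT, and 12.5% and 8.37% in Ezr-KOm. All 7 B and plasma cell markers were called higher in WT matIMs than in both others, at 9.28 to 13.7 CPM in moMs, 62.7 to 102 in tnsIMs and 455 to 608 in matIMs. In Ezr-KOm, 7 were called over moMs and 4 over tnsIMs, at 9.83 to 12.7, 83.4 to 128 and 347 to 524 CPM. Mzb1 was at 0 in all WT moMs, and Mzb1 and Pax5 in all Ezr-KOm moMs. The study's methods take the sorted populations from CD11c- CD11b+ cells and place dendritic cells in the CD11c+ fraction, whereas the sort markers in the labels name neither CD11c nor a B cell marker. The part of dendritic and B cells in the higher mitosis genes of matIMs was not tested.

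Markers of lung structure peaked instead in tnsIMs. The 6 epithelial markers summed to 114 to 151 CPM in WT moMs, 2456 to 4065 in WT tnsIMs and 534 to 574 in WT matIMs. In Ezr-KOm the sums were 82.5 to 181, 1706 to 3163 and 339.7 to 480.5 CPM. In both genotypes 4 of 6 were called higher in tnsIMs than in moMs, against 13% of all genes in WT and 9.23% in Ezr-KOm. None of these markers was at 0 in any group. All 6 endothelial and 4 of 6 fibroblast markers were called higher in tnsIMs than in moMs in both genotypes as well. Their part in the low Racgap1, Anln and Aurkb levels of tnsIMs was not tested. Of 8 T and NK cell markers, 0 were called higher in any comparison of populations.

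**Figure D5:**
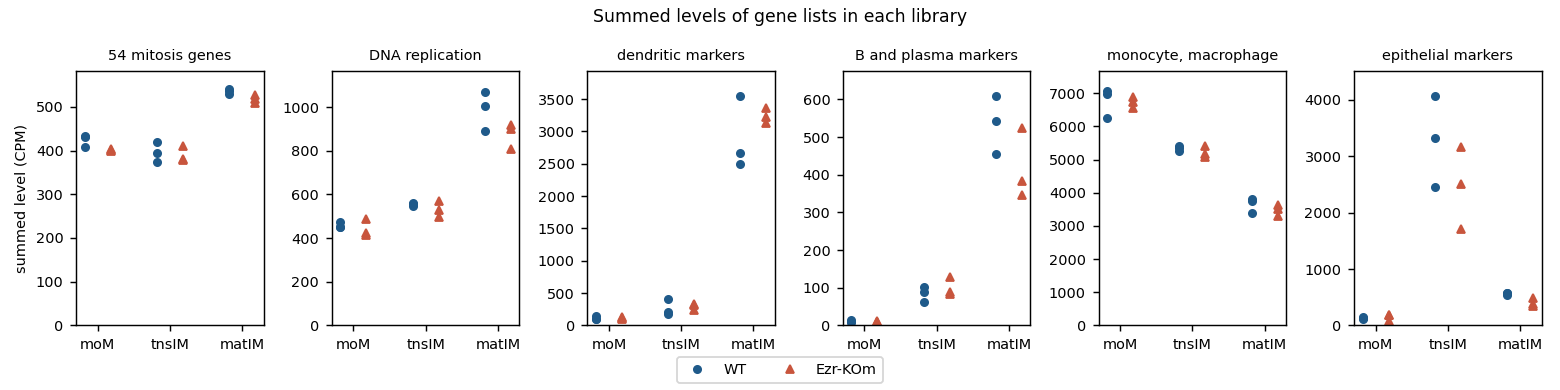
Summed level (CPM, linear axes from 0) of the 54 mitosis genes, DNA replication genes and markers of 4 cell types in each library by population, circles for WT and triangles for Ezr-KOm. Mitosis genes, replication genes, dendritic markers and B and plasma cell markers are highest in matIMs, monocyte and macrophage markers are highest in moMs, and epithelial markers are highest in tnsIMs.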

How the data were processed

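RNA of sorted cells was amplified by the authors with a low-input, full-length kit and sequenced as read pairs. Per the labels, reads were aligned with STAR 2.7.9a to GRCm39 with Gencode M29, and the authors deposited raw read counts per gene, without normalization. The strand column of these counts is not given in the sources used here. Columns were matched to samples by name, and 0 columns belonged to other samples.

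As in the study, edgeR was used (version 4.0.16, under R 4.3.3), with filterByExpr on the 6 groups (count minimum 10), TMM and 1 quasi-likelihood model of all 18 libraries. Contrasts compared populations within a genotype, genotypes within a population, and both together (interactions). P-values were adjusted over all genes tested by Benjamini-Hochberg, and intervals are 95%. A group in which no library exceeded 3 counts of a gene was taken to be at the floor, and such values have exact intervals that cover counting error only.

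The 54 genes, the other gene lists and the markers were chosen with earlier results of these data known. Values in every library are given for 18 genes of all roles and for the 5 of lowest p per direction and comparison, where the unadjusted p was under 0.05. Of each other list, at most the 4 genes with the smallest p in a comparison are named, with Ezr. Genes of the 54 named outside this rule, and the libraries named, were chosen after their values were seen.

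Replicate numbers were checked as pairs from the correlation of deviations from group means. It was 0.102 to 0.316 between genotypes of one population for the same number, and at most 0.0508 for different numbers, so the numbers pair the libraries there. The same held between tnsIMs and moMs and between matIMs and tnsIMs, while between matIMs and moMs the lowest value was 0.0905, under the bound of 0.1. Different numbers gave at most 0.0316 between populations of one genotype, so equal numbers lay above them for matIMs and moMs too. The study names 3 mice per genotype, and the labels tie no number to a mouse.

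Alternatives were DESeq2 1.42.0, upper-quartile scaling, library totals, no filter, at least 10 counts in every library, a fit of the compared groups alone, a block for the replicate number and leaving out each library. Overlaps and exonic lengths came from Gencode M39, a later annotation of the same build. Pseudogene copies came from BLAST 2.17.0 at 90% identity over 80% of the copy's own transcript. Promoters came from RefSeq on GRCm38.p6. Scripts were tested on simulated counts.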

Additional observations from a re-analysis of the deposited data

How the results depend on the processing

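Of the results for called or named genes under an alternative, 3293 kept their direction and side of the threshold, 302 lost the call, 18 gained it and 0 changed direction. Many alternatives left out a library outside the groups compared, which enters only through the shared spread and scaling. These genes were also picked by their p in the main fit, so the tally overstates how stable the results are. Among genes that were not called the sign changed more often, at most in 12 of 50, for the genotypes in tnsIMs without WT tnsIM replicate 2. Requiring at least 10 counts in every library left 30 of the 54 genes, and with fewer genes tested the counts called fell to 3 for WT tnsIMs against moMs, 13 for WT matIMs against tnsIMs and 13 against moMs, 14 for Ezr-KOm matIMs against tnsIMs and 14 against moMs, and 0 by the study's rule between genotypes in moMs, tnsIMs and matIMs. By that rule, the 1 gene in moMs became 0 when only the groups compared were fitted, and the 1 gene in matIMs became 0 with upper-quartile scaling, with library totals and with no filter. The cause was not tested. Leaving out each library in turn, the counts called ranged from 3 to 6 for WT tnsIMs against moMs, 22 to 35 for WT matIMs against tnsIMs, 22 to 29 for WT matIMs against moMs, 3 to 7 for Ezr-KOm tnsIMs against moMs, 22 to 29 for Ezr-KOm matIMs against tnsIMs and 19 to 29 for Ezr-KOm matIMs against moMs. By the study's rule they ranged from 0 to 2 in moMs, 1 to 5 in tnsIMs and 0 to 1 in matIMs. The lowest counts came without WT moM replicate 3 or WT tnsIM replicate 2, without WT tnsIM replicate 1, and without Ezr-KOm moM replicate 2 or 3, in the order of the comparisons of tnsIMs against moMs in WT, matIMs against tnsIMs in WT and tnsIMs against moMs in Ezr-KOm. Adjusted genotype calls and interactions remained 0. With the replicate number as a block, the count for WT tnsIMs against moMs was 8, and also 8 with a block for each genotype. For matIMs against moMs, where the check of the numbers fell under its bound, the block gave 33 higher and 1 lower (Racgap1) in WT and 32 higher in Ezr-KOm. For matIMs against tnsIMs it added Ect2 and Smc4 in WT and Ect2, Foxm1, Kif20a, Kif20b, Kif2c and Mad2l1 in Ezr-KOm. It moved no other count of calls by over 1.5 times, and the count at an unadjusted p under 0.05 between genotypes in moMs went from 1 to 2. Library totals moved the median of all genes by 0.13 for Ezr-KOm matIMs against moMs, where 30 genes were called higher. Calls lost in most alternatives included Kif23 (19 of 26), Spc25 (17 of 26) and Bub1 (16 of 25), all for WT matIMs against tnsIMs. At few counts the depth leaves wide intervals, such as 5.79 to 45.6 for the ratio of Ttk between Ezr-KOm matIMs and tnsIMs.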

Other observations

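Some genes that govern the step before DNA replication were higher in matIMs than in moMs, and Cdkn2d was lower. Of 14 tested G1 cyclins, partners and inhibitors, 5 were called higher in matIMs than in moMs in both genotypes and 1 lower in each. Of all genes, 13.4% in WT and 12.5% in Ezr-KOm were called higher, with 10.3% in both. The shares called lower were 11.4% and 10.7%. Ccnd2, cyclin D2, which activates Cdk4 and Cdk6, rose from moMs to tnsIMs by 1.18 ± 0.17 (SE, adjusted p = 8.61e-05) in WT and 1.20 ± 0.17 (SE, adjusted p = 0.000127) in Ezr-KOm, and again from tnsIMs to matIMs, by 1.52 ± 0.17 (SE, adjusted p = 4.51e-06) and 1.47 ± 0.17 (SE, adjusted p = 6.81e-06). Cdkn2b, p15, an inhibitor of the same kinases, rose from moMs to matIMs as well, by 3.77 ± 0.37 (SE, adjusted p = 3.62e-07) and 5.00 ± 0.40 (SE, adjusted p = 3.7e-08). Cdkn2d, p19, a further inhibitor of this family, was lower in matIMs than in moMs, by -1.58 ± 0.22 (SE, adjusted p = 2.38e-05) and -1.20 ± 0.21 (SE, adjusted p = 0.000372), and lower in tnsIMs, by -1.84 ± 0.22 (SE, adjusted p = 1.31e-05) and -1.48 ± 0.22 (SE, adjusted p = 0.000141).

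Of 18 genes of E2F factors, pocket proteins and MuvB, E2f2 and Rbl1 are named here. In both genotypes, 4.52% of all genes were called lower in tnsIMs than in moMs, and 6.46% higher in matIMs than in tnsIMs. E2f2 was lower in tnsIMs than in moMs in both genotypes, by -1.81 ± 0.25 (SE, adjusted p = 5.61e-05) in WT and -1.14 ± 0.25 (SE, adjusted p = 0.00366) in Ezr-KOm. Rbl1, the pocket protein p107, was higher in matIMs than in tnsIMs, by 0.91 ± 0.19 (SE, adjusted p = 0.00231) and 0.71 ± 0.19 (SE, adjusted p = 0.0138). Between genotypes, 0 of the G1 genes and 0 of these 18 were called in any population by edgeR.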
